A study of Mus musculus with 30 samples.

Results

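The 9 genes described here mark 3 related granulocyte lineages: mast cells (*Mcpt4*, *Cpa3*), basophils (*Mcpt8*, *Prss34*) and eosinophils (*Prg2*, *Epx*, *Il5ra*), with *Fcer1a* and *Ms4a2* for the IgE receptor that mast cells and basophils carry. They were chosen by gene symbol, with no measured value in the rule but with earlier results of these data known. Each was found in both count tables, as 9 of 13353 genes in BM and 9 of 17059 genes in adipose tissue macrophages (ATMs). None of the 9 was lost to the filter on low counts in either tissue.

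Irradiated recipient mice (700 cGy and then 400 cGy) received CD45.2+ donor BM from Shp2E76K/+;LysM-Cre+ mice, mixed with an equal number of CD45.1+ competitor BM cells from Boy/J mice. The WT group comprised WT recipients with no treatment label. The 4 other groups were leptin-deficient Ob/Ob recipients that received, from 8 weeks after transplantation and for 30 days, vehicle, beinaglutide (a GLP-1R agonist, injected under the skin at 3 mg/kg), an antibody against IL-17A (200 μg given to each mouse i.p., 3 injections a week), or both agents (Combo). RNA was sequenced from whole BM and from visceral adipose macrophages (F4/80+ cells in the study's account). Each tissue had 5 groups with 3 libraries per group, for 30 libraries in all. The labels give mice of about 12–14 weeks, without the stage to which that age refers, of both sexes and on a C57BL/6J background. By the labels, WT recipients carried the same Shp2E76K/+ graft, but the study also describes its ATM comparison as one of mutant against WT grafts, so that for vehicle against WT in ATMs graft and recipient cannot be told apart. LysM-Cre acts in myeloid cells, the competitor cells lack the allele, and the Ob/Ob host differs from WT in leptin as well as in adiposity. The labels do not tie a single library to a donor.

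Mast cells, basophils and eosinophils arise from GATA2-dependent progenitors of the BM and store preformed proteins in granules. Mast cells mature in tissues, adipose tissue among them, under stem cell factor, whereas basophils expand in the BM under IL-3 and eosinophils under IL-5. The high-affinity IgE receptor is assembled from an α chain (*Fcer1a*) that binds IgE, a β chain (*Ms4a2*) that amplifies the signal and a γ chain (*Fcer1g*) shared with other Fc receptors.

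Total counts ranged from 31086184 to 39925495 per BM library and from 24876074 to 45300263 per ATM library, and the biological coefficient of variation, edgeR's term for the spread between libraries, was 3.51% in BM and 32.5% in ATMs. The labels do not name the animal of a library. This spread, and each FDR that rests on it, may therefore not measure variation between mice. Each pair of libraries of a group differed by more than sampling noise, with a chi-square per degree of freedom from 2.02 to 34.8. The highest value involved BM WT replicate 1, which stood apart from the other two WT libraries, and values that change without it are given beside them. *Xist*, transcribed from the inactive X chromosome, was at 101 to 193 CPM (counts scaled to library size) in BM of the vehicle and Combo groups and at 0 to 3.26 CPM in the other 3 groups, and in ATMs at 30.1 to 46.2 against 0 to 1.22 CPM. The Y-linked gene *Ddx3y* was in BM at 19.9 to 21.3 CPM in vehicle, 4.22 to 5.09 in Combo and 41.9 to 57.9 in the others, and in ATMs at 7.44 to 16.2, 6.09 to 11.7 and 80.5 to 173 CPM. Wherever vehicle or Combo is compared with WT, the GLP-1R agonist or anti–IL-17A, treatment or recipient therefore cannot be told apart from the sex of the cells. Combo and vehicle also differed, since 4 of 5 sex-linked genes were called lower in Combo in BM (median log2 -2.13), beside a median of -0.15 in ATMs. The sex-linked genes were chosen after their values were seen.

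In the mouse genome (GRCm38), *Mcpt4* (chr14:56059629-56062313) and *Mcpt8* (chr14:56082166-56085273) lie near each other on the minus strand within a cluster of related granule protease genes. A mapping quality limit applied to the reads of all genes, and reads that near-identical copies share could be lost under it. *Cpa3* (chr3:20215620-20242181), *Fcer1a* (chr1:173221284-173227214), *Ms4a2* (chr19:11615523-11623719), *Epx* (chr11:87864000-87875536) and *Il5ra* (chr6:106710357-106749037) are on the minus strand of their chromosomes, and *Prss34* (chr17:25298394-25300165) and *Prg2* (chr2:84980461-84983632) on the plus strand. All are protein-coding, and no exon base of any of them is shared with another annotated gene.

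GATA factors drive the transcription of many mast cell, basophil and eosinophil genes, so the 250 bases before the start of each gene in RefSeq (GRCm38.p6) were searched on both strands for GATAA. The motif was present in 6 of the 8 members with an entry (*Mcpt4*, *Cpa3*, *Prss34*, *Fcer1a*, *Ms4a2* and *Il5ra*) and in 22.6% of 32851 promoters of the same length. The E-box CANNTG was found in 6 of 8 (66.2% of all promoters), TATAAA in 4 of 8 (12.4%) and the STAT motif TTCCNGGAA in 0 of 8 (0.913%), and no GATAA match overlapped another motif. A few promoters are shown because the results turn on their genes: *Cpa3* (chr3:20242182-20242431, minus strand), *Prss34* (chr17:25298144-25298393, plus strand), *Fcer1a* (chr1:173227230-173227479, minus strand), *Ms4a2* (chr19:11623720-11623969, minus strand) and, as a member without the motif, *Epx* (chr11:87875537-87875786, minus strand). Each is written 5′ to 3′ along its gene, with GATAA, or TTATC where it lies on the opposite strand, in capitals.
Cpa3: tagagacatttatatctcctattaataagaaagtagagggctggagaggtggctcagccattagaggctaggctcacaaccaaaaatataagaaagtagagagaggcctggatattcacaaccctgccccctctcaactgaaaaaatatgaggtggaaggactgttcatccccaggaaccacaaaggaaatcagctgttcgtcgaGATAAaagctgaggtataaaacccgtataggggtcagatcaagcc
Prss34: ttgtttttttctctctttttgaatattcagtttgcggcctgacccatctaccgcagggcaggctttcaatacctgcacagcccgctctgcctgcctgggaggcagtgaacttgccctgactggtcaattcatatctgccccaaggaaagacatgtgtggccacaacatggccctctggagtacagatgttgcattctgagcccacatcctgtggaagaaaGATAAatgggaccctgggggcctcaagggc
Fcer1a: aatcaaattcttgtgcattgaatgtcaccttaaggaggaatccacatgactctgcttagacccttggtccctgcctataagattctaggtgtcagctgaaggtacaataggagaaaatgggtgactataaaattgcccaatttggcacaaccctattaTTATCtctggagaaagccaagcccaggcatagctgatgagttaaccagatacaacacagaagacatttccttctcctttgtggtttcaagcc
Ms4a2: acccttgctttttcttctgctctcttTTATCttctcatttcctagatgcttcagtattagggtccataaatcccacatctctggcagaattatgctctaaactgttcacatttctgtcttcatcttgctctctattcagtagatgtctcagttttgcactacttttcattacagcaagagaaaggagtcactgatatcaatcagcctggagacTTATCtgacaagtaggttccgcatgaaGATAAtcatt
Epx: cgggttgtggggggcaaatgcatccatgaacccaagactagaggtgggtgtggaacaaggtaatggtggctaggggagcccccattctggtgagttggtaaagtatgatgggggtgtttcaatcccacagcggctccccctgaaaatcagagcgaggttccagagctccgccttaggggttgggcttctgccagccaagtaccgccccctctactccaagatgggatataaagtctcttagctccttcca

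*Ms4a2* held 3 matches, at 224 to 220, 37 to 33 and 10 to 6 bases before the start. Single matches lay at 45 to 41 bases in *Cpa3*, 30 to 26 bases in *Prss34* and 92 to 88 bases in *Fcer1a*. A match is a description of the letters and not evidence that a factor binds there.

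In BM, the basophil genes, the IgE receptor chains and *Cpa3* stood in nearly the same order in the 5 groups, highest in Ob/Ob recipients given vehicle, lower in WT and lowest in the treated groups, whereas the eosinophil granule genes followed other orders. A gene is said to rise or fall only where edgeR's quasi-likelihood test gave a Benjamini-Hochberg FDR below 0.05 over all genes of the table together with an absolute log2 fold change above 1, with errors of log2 values given as SE. Levels are normalized counts, scaled to the mean effective library size of the tissue, in the order of replicates 1 to 3. The 3 treated groups were compared with the same vehicle libraries, and WT with those as well, so the comparisons are not independent of each other. Lower RNA of a gene in a bulk sample can come from fewer cells of a type or from less RNA per cell, and these cannot be told apart here.

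*Mcpt8*, a serine protease of basophil granules, gave 8602, 9676 and 9638 normalized counts in WT recipients and 11371, 11589 and 11598 in vehicle-treated Ob/Ob recipients. The levels were 3604, 3568 and 3484 with the GLP-1R agonist, 5202, 4942 and 5229.7 with anti–IL-17A and 4249, 4364 and 4391 with Combo. No library of any group overlapped with another group, in the order vehicle, WT, anti–IL-17A, Combo and GLP-1R agonist. Relative to vehicle, *Mcpt8* fell 3.24-fold with the GLP-1R agonist (log2 -1.70 ± 0.034, FDR 9.59e-31), 2.25-fold with anti–IL-17A (log2 -1.17 ± 0.033, FDR 4.20e-26) and 2.66-fold with Combo (log2 -1.41 ± 0.034, FDR 2.02e-28). The difference between vehicle and WT was 1.24-fold (log2 0.31 ± 0.032, FDR 1.74e-10), under the fold limit.

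*Prss34*, which encodes a tryptase-like protease of basophils and mast cells, gave 13839.5, 14877 and 14519 normalized counts in WT, 21416, 22006 and 22275 in vehicle and 7491, 7375 and 7263 with the GLP-1R agonist. With anti–IL-17A it gave 10249, 10081 and 10048, and with Combo 9266, 9516 and 9658. The groups did not overlap and stood in the same order as for *Mcpt8*. *Prss34* fell 2.97-fold with the GLP-1R agonist (log2 -1.57 ± 0.026, FDR 7.66e-38), 2.16-fold with anti–IL-17A (log2 -1.11 ± 0.026) and 2.31-fold with Combo (log2 -1.21 ± 0.026). Vehicle exceeded WT by 1.52-fold (log2 0.60 ± 0.025, FDR 1.77e-23), which did not reach the fold limit.

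*Fcer1a*, the IgE-binding α chain whose promoter holds GATAA on the opposite strand, was at 1312, 1241 and 1217 normalized counts in WT and 1707, 1686 and 1702 in vehicle. The treated groups were at 432, 488 and 459 (GLP-1R agonist), 646, 619 and 614 (anti–IL-17A) and 501, 568 and 558 (Combo). All treated libraries lay under all WT and vehicle libraries, and neighbouring groups did not overlap. *Fcer1a* had the largest log2 change of the 8 members other than *Mcpt4* with the GLP-1R agonist, at -1.88 ± 0.059 (3.69-fold lower, FDR 6.58e-28), and fell 2.71-fold with anti–IL-17A and 3.13-fold with Combo (FDR 2.30e-24 and 4.98e-26).

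*Ms4a2*, the β chain with 3 GATAA matches, gave 1103, 821 and 912 normalized counts in WT, 1469.7, 1349.8 and 1292 in vehicle, 574, 580.2 and 588 with the GLP-1R agonist, 748, 718 and 676 with anti–IL-17A and 583, 528 and 458 with Combo. The WT value of 1103 belonged to replicate 1, and only the GLP-1R agonist and Combo groups overlapped as neighbours. *Ms4a2* fell 2.36-fold with the GLP-1R agonist (log2 -1.24 ± 0.090, FDR 8.17e-11) and 2.62-fold with Combo (log2 -1.39 ± 0.093, FDR 1.66e-11), while the log2 difference with anti–IL-17A was -0.94 ± 0.088.

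*Cpa3*, a carboxypeptidase of mast cell and basophil granules and of their progenitors, was at 1860.4, 1614 and 1645 normalized counts in WT and 2399.5, 2267 and 2444 in vehicle. It was at 1092, 1129 and 1102 with the GLP-1R agonist, 1507, 1458 and 1404 with anti–IL-17A and 1273, 1324 and 1158 with Combo. The groups did not overlap and kept the order of *Mcpt8*. *Cpa3* fell 2.14-fold with the GLP-1R agonist (log2 -1.10 ± 0.052, FDR 1.87e-21), whereas the log2 differences of -0.70 ± 0.051 with anti–IL-17A and -0.92 ± 0.052 with Combo stayed under the fold limit.

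*Prg2* and *Epx* did not share this order, whereas the group means of *Il5ra* stood in the order of *Ms4a2*. *Prg2*, the major basic protein of the eosinophil granule, was highest in WT (29027, 30224 and 30824 normalized counts) and lower in vehicle (20238, 20869 and 21687). It was at 17743, 17396 and 17494 with the GLP-1R agonist, 18838, 19178 and 19181 with anti–IL-17A and 19490.2, 19269 and 19693 with Combo, with no overlap between neighbouring groups. The log2 differences were -0.52 ± 0.025 for vehicle against WT and from -0.25 to -0.10 for the treated groups against vehicle, none past the fold limit.

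*Epx*, the eosinophil peroxidase, gave 3331, 3594 and 3605 normalized counts in WT, 2895, 3010.0 and 3118 in vehicle, 2681, 2646 and 2662 with the GLP-1R agonist, 3437, 3388 and 3312 with anti–IL-17A and 4036, 3834 and 4249 with Combo. Combo held the highest libraries, and WT and anti–IL-17A overlapped. The log2 difference of Combo from vehicle was 0.43 ± 0.038 (FDR 3.59e-13), opposite in sign to that of the basophil genes and under the fold limit, and that of vehicle from WT was -0.22 ± 0.038. The 5 immature granulocyte markers summed to 10526 to 10669.6 CPM in Combo and 4296 to 7075 CPM in the other BM groups, and their part in the *Epx* level was not tested.

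*Il5ra*, the α chain of the IL-5 receptor, was low throughout, at 208, 185 and 141 normalized counts in WT and 175, 216 and 179 in vehicle. The treated groups gave 77.8, 69.2 and 75.6 (GLP-1R agonist), 75.1, 63.8 and 89.8 (anti–IL-17A) and 40.1, 49.8 and 45.9 (Combo). WT and vehicle overlapped, as did the single-agent groups, and the Combo libraries were under all others. *Il5ra* fell 2.56-fold with the GLP-1R agonist, 2.49-fold with anti–IL-17A and 4.19-fold with Combo (log2 -2.07 ± 0.18, FDR 1.55e-13). Of the eosinophil genes, the receptor gene thus fell in all 3 treated groups, while *Prg2* and *Epx* passed the test in none of them.

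*Mcpt4*, a chymase of connective tissue mast cells, was at or near the limit of detection in BM, with raw counts of 0, 4 and 5 in WT, 1, 0 and 0 in vehicle, 1, 2 and 1 with anti–IL-17A and 3, 4 and 1 with Combo. The GLP-1R agonist libraries held 26, 32 and 23 counts, above every library of the other groups. With 81 counts in all against 1 in vehicle, the ratio per effective library size was 67.3, with an exact 95% interval of 11.7 to 2690.0 that covers counting error only (FDR 1.28e-07). *Tpsb2* and *Cma1*, further mast cell proteases that were looked at after the *Mcpt4* values were seen, were also highest in these libraries, with 38, 33 and 33 and 31, 44 and 29 counts against at most 11 and 15 elsewhere. Adipocyte markers (3 of 5 in the table) summed to 36.5 to 38.7 CPM in the GLP-1R agonist group and to 6.59 to 29.8 CPM in the others, and their part in the *Mcpt4* difference was not tested.

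Counted over the 9 members, vehicle against WT gave 0 calls by edgeR, beside 19.5% of all 13353 genes. In that comparison 7 members had an unadjusted p under 0.05 and, without the fold limit, 7 had an FDR below 0.05, as did 76.6% of all genes. DESeq2 called 1 (*Mcpt4*), and 7 did not overlap between groups, against 75.8% of all genes. The call for *Mcpt4* was also made without WT replicate 1 (FDR 0.0183) and without vehicle replicate 1 (FDR 0.0411), which held its only vehicle count, and its FDR was 0.0183 to 0.240 over all alternatives. Combo against vehicle also passed for *Mcpt4* without vehicle replicate 1 (FDR 0.0494, with 0.0494 to 0.206 over all alternatives). The GLP-1R agonist gave 6 lower (9.08% of all genes were called lower) and 1 higher (7.6% higher), with 9 not overlapping against 75.5%. Anti–IL-17A gave 4 lower (8.46%) and 8 not overlapping (76%), and Combo 5 lower (11.1%) and 8 not overlapping (75.7%). The median log2 difference from vehicle over the members was -1.24, -1.03 and -1.21 for the GLP-1R agonist, anti–IL-17A (8 members, without *Mcpt4*) and Combo, beside all-gene medians of 0.010, 0.0065 and 0.021. In these medians a gene with 1 group at the floor of 3 counts per library stands at its bound, and a gene with both groups there is left out.

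**Figure D1:**
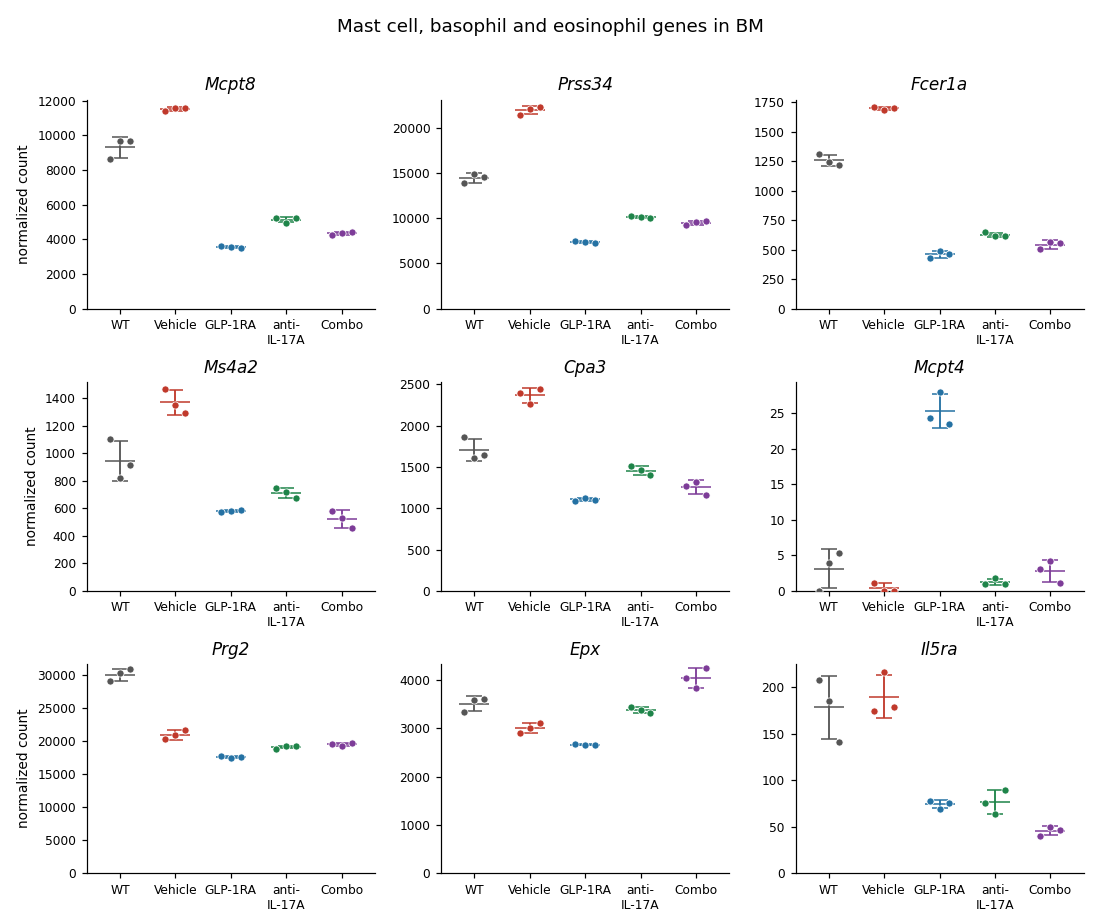
Normalized counts of the 9 members in BM, 1 panel per gene, with the 5 groups on the x axis and a linear y axis from 0. Points are libraries (3 per group), the dash is the mean and the bar the SD. Mcpt8, Prss34, Fcer1a, Ms4a2 and Cpa3 are highest in vehicle and lower in all treated groups, Prg2 is highest in WT and Epx in Combo, and Mcpt4 is above 20 only in the GLP-1R agonist group.

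Per length of transcript (RPKM, counts scaled to transcript length and library size), *Prg2* was the most abundant member in BM, with group means from 601 to 1029. *Prss34* followed at 174 to 515 and *Mcpt8* at 102 to 331. *Epx* (27.9 to 42.4), *Cpa3* (21.0 to 44.9), *Fcer1a* (13.2 to 48.9) and *Ms4a2* (5.34 to 14.0) were at intermediate levels, and *Il5ra* did not exceed 1.52. Across the 15 BM libraries, Pearson's r of log2 CPM between pairs of *Mcpt8*, *Prss34*, *Fcer1a*, *Ms4a2* and *Cpa3* was 0.92 to 0.99, while *Epx* correlated with these 5 genes at -0.27 to 0.036. The other eosinophil genes correlated with the same 5 genes at 0.81 to 0.90 (*Il5ra*) and 0.45 to 0.68 (*Prg2*). These correlations describe libraries that share 5 group means, and they carry no test.

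Further genes of the same lineages and pathways were read in BM, from lists given here by their counts and medians. Of the other basophil genes, 3 of 6 in the table rose in vehicle against WT, namely *Csf2rb2* (log2 1.83), *Csf2rb* (1.40) and *Il3ra* (1.31), which encode subunits of the IL-3 receptor family. Under Combo against vehicle, 2 of 6 fell, *Cd200r3* (log2 -1.82) and the cytokine gene *Il4* (-1.57), which are not among the 3 that rose in vehicle. The summed level of the 6 genes did not fall with Combo. It was 214 to 242 CPM in WT, 608 to 614 in vehicle and 702 to 717 in Combo. Of all genes, 9.44% were called higher and 10% lower in the first comparison, and 6.58% higher and 11.1% lower in the second. The list medians were 0.94 and -0.79, beside -0.017 and 0.021 for all genes. Of the other mast cell genes, 8 of 10 were in the table. *Hdc*, the histidine decarboxylase that makes histamine, rose in vehicle (log2 1.44) and fell with Combo (-1.17), as *Slc18a2*, a vesicular amine transporter, did with Combo (-1.22). *Kit*, the stem cell factor receptor that other progenitors also carry, rose with Combo (log2 1.35), as did *Tpsb2* from 2, 0 and 1 to 9, 10 and 11 counts, and *Hpgds*, a prostaglandin D synthase, fell in vehicle against WT (-2.20). The medians of this list were -0.35 and -0.12.

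All 7 other eosinophil genes were in the BM table, and 3 of them fell in vehicle against WT: the chemokine receptor *Ccr3* (log2 -2.58), the eosinophil ribonuclease *Ear2* (-1.52) and the surface lectin *Siglecf* (-1.34), with a list median of -0.99. Under Combo, *Siglecf* (1.35) and *Ccr3* (1.09) rose relative to vehicle, and the median was 0.61. Of the genes that signal from the IgE receptor, 1 of 9 rose in vehicle (the adaptor *Gab2*, log2 1.5) and 1 of 9 fell with Combo (the adaptor *Lat*, -1.09). Of 9 lineage transcription factors *Id2* was the only one called in these comparisons, higher in vehicle (log2 2.09) and lower with Combo (-1.20). Of the growth and recruitment factors 3 of 8 were in the table. *Kitl*, which encodes stem cell factor, and *Tslp* fell in vehicle against WT (log2 -1.51 and -1.37), and under Combo *Il33* fell (-2.71) while *Tslp* rose (1.18).

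The same lists were counted under the single agents in BM. With the GLP-1R agonist, where 7.6% of all genes rose and 9.08% fell, 4 of 8 other mast cell genes rose and 1 fell (median log2 1.2), 3 of 6 other basophil genes fell (-1.13), and 3 of 7 other eosinophil genes fell and 1 rose (-0.56). With anti–IL-17A, 2 of the mast cell genes rose and 1 fell (0.10), 2 basophil genes fell (-0.88) and 2 eosinophil genes rose (0.22), where 7.65% of all genes rose and 8.46% fell. The other eosinophil genes thus had a negative median with the GLP-1R agonist and positive ones with anti–IL-17A and Combo.

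In ATM libraries, the mast cell genes and *Fcer1a* were several-fold higher in the vehicle group than in WT, and the members then diverged with treatment. *Fcer1a* fell in all 3 treated groups, *Prss34* rose with the GLP-1R agonist and with Combo, and *Prg2* and *Epx* rose with Combo alone among the treated groups. The libraries also differed in their defining markers. *Adgre1*, which encodes F4/80, was at 30.2 to 52.4 CPM in vehicle and 192 to 894 CPM in the other groups, and the 7 macrophage markers summed to 1703 to 1836 against 3248 to 12561 CPM. *Lyz2* made up much of that sum, at 899 to 972 CPM in vehicle and 2068 to 2208 in WT. Of the 7, *Cd68* went the other way against WT, at 505 to 552 CPM in vehicle and 261 to 263 in WT, with 813 to 1658 CPM in the treated groups. The 4 mature neutrophil markers in the table (of 5) summed to 16212 to 17311 CPM in vehicle, 6792 to 7059 in Combo and 128 to 236 elsewhere, and the 5 adipocyte markers to 3999 to 4242 CPM in vehicle and 1095 to 1278 elsewhere. The median log2 difference of the 5 adipocyte markers was -0.18 for vehicle against WT and 0.34 for Combo against vehicle. Their sum therefore does not stand for each of these genes. The epididymal gene *Crisp1* reached 2964 to 3114 CPM in WT and at most 154 CPM in the other groups. The part of these markers in the differences of the members was not tested. Over all genes the median log2 difference was -0.21 for vehicle against WT and 0.19, 0.17 and 0 for the GLP-1R agonist, anti–IL-17A and Combo against vehicle.

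*Cpa3*, whose promoter is shown above, gave 1619.7, 1724 and 1646 normalized counts in WT and 8453, 6973 and 9715 in vehicle, where the replicates were widely spread. It was at 8289, 8513 and 8193 with the GLP-1R agonist, 11023, 10716 and 10605 with anti–IL-17A and 4761, 5191 and 4476 with Combo. WT lay under all other groups, and vehicle and the GLP-1R agonist overlapped. *Cpa3* rose 5.04-fold in vehicle against WT (log2 2.33 ± 0.094, FDR 6.42e-12), and its log2 difference of -0.80 ± 0.089 with Combo against vehicle (FDR 1.85e-06) did not reach the fold limit.

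*Mcpt4*, nearly absent from BM, gave 1049, 1134 and 982 normalized counts in WT ATMs and 3064, 3173 and 3374 in vehicle. It was at 5871, 6340.2 and 6098 with the GLP-1R agonist, 7225, 6844 and 7117 with anti–IL-17A and 3033, 2892 and 3066 with Combo. Both single-agent groups were above vehicle and Combo, which overlapped with each other, and WT was lowest. *Mcpt4* rose 3.04-fold in vehicle against WT (log2 1.60 ± 0.067, FDR 8.00e-12) and a further 2.20-fold with anti–IL-17A (log2 1.14 ± 0.065, FDR 3.94e-10). The log2 difference with the GLP-1R agonist was 0.93 ± 0.064 and with Combo -0.10 ± 0.064, neither past the fold limit.

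*Fcer1a* differed widely between ATMs of WT (98.9, 141 and 216 normalized counts) and vehicle (3344, 3395 and 3287). The treated groups were at 1569, 1294 and 1348 with the GLP-1R agonist, 1779, 1399 and 1652 with anti–IL-17A and 857, 896 and 881 with Combo. Vehicle stood above every other library and WT under every other library, and the single-agent groups overlapped. *Fcer1a* rose 21.9-fold in vehicle against WT (log2 4.45 ± 0.21, FDR 4.04e-11). Relative to vehicle it fell 2.38-fold with the GLP-1R agonist, 2.08-fold with anti–IL-17A and 3.81-fold with Combo (log2 -1.93 ± 0.18, FDR 2.72e-07). The call for anti–IL-17A was lost without anti–IL-17A replicate 2, where the log2 difference was -0.95. After Combo, *Fcer1a* remained 5.76-fold above WT (log2 2.53 ± 0.20, FDR 4.55e-08).

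*Ms4a2*, the partner chain of *Fcer1a*, was at 10.7, 57.9 and 43.6 normalized counts in WT, 90.8, 63.1 and 10.5 in vehicle, 238, 82.6 and 187 with the GLP-1R agonist, 274, 249 and 311 with anti–IL-17A and 169, 223 and 92.9 with Combo. Replicates of a group differed by up to several-fold, and WT and vehicle overlapped. *Ms4a2* rose 5.05-fold with anti–IL-17A against vehicle (log2 2.34 ± 0.69, FDR 0.00881). The GLP-1R agonist (log2 1.62 ± 0.67, FDR 0.0546) and Combo (1.56 ± 0.67, FDR 0.0695) did not pass edgeR's test, although both passed by DESeq2 (FDR 0.0345 and 0.0415) and without vehicle replicate 1 (FDR 0.0265 and 0.0335), and the GLP-1R agonist also without its own replicate 2 (FDR 0.0351). Over all alternatives the FDR was 0.0265 to 0.167 for the GLP-1R agonist and 0.0335 to 0.192 for Combo.

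In ATMs *Prss34* was higher in treated groups, where in BM it was lower. Its levels were 185, 127 and 151 normalized counts in WT, 222, 216 and 335 in vehicle, 554, 531 and 512 with the GLP-1R agonist, 509.5, 521 and 471 with anti–IL-17A and 611, 624 and 622 with Combo. Every treated library was above every vehicle library, and the Combo libraries were the highest. *Prss34* rose 2.40-fold with Combo (log2 1.26 ± 0.20, FDR 7.05e-05) and 2.07-fold with the GLP-1R agonist (log2 1.05 ± 0.20, FDR 0.000353). The latter lay at the fold limit, with log2 0.997 when size factors replaced TMM, 0.95 without vehicle replicate 1 and 0.93 without vehicle replicate 2. Vehicle differed from WT by log2 0.74 ± 0.20 (FDR 0.00561), under the fold limit. The log2 difference with anti–IL-17A was 0.96 ± 0.20, and it passed the limit without vehicle replicate 3 (1.18) or anti–IL-17A replicate 3 (1.00).

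*Mcpt8* was scarce in ATMs, at 4.76, 10.5 and 2.18 normalized counts in WT, 69.5, 38.2 and 47.9 in vehicle, 5.97, 5.42 and 14.8 with the GLP-1R agonist, 8.41, 16.1 and 35.1 with anti–IL-17A and 65.7, 47.9 and 57.8 with Combo. Vehicle and Combo were high and overlapped, and the other 3 groups were lower. *Mcpt8* rose in vehicle against WT (log2 3.12 ± 0.87, FDR 0.00625) and fell with the GLP-1R agonist (log2 -2.54 ± 0.84, FDR 0.0187). The second call was lost without vehicle replicate 1 (FDR 0.0501) and without GLP-1R agonist replicate 1 or 2 (FDR 0.0634 and 0.0640), with 0.00157 to 0.0640 over all alternatives. The groups with high *Mcpt8* are also those with high neutrophil markers, and the part of these in the result was not tested.

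The eosinophil granule genes set Combo ATMs apart. *Prg2* gave 142, 125 and 161 normalized counts in WT, 116, 104 and 97.3 in vehicle, 99.5, 86.7 and 97.7 with the GLP-1R agonist, 114, 94.1 and 114 with anti–IL-17A and 529.6, 674 and 532 with Combo. *Epx* had 0 counts in every vehicle, GLP-1R agonist and anti–IL-17A library, raw counts of 0, 11 and 0 in WT, and 140, 189 and 223 with Combo. The Combo libraries were above all others for both genes. Vehicle did not pass the test against WT for *Prg2* (log2 -0.43 ± 0.24). Relative to vehicle, *Prg2* rose 5.46-fold (log2 2.45 ± 0.25, FDR 7.07e-07) and *Epx* was at least 39.0-fold higher, measured against the floor of 3 counts per library (FDR 0.00332 by edgeR's quasi-likelihood test and 0.0867 by DESeq2, with 0.000263 to 0.0867 over all alternatives).

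The same Combo libraries held other transcripts that were low elsewhere. *Mpo*, the myeloperoxidase of immature granulocytes, was at 209 to 225 CPM in Combo and at 1.81 to 14.3 CPM in the other ATM groups, and the 5 immature granulocyte markers summed to 349 to 372 against 4.70 to 25.9 CPM. *Pnlip*, a pancreatic lipase, had 3979 to 4274 counts in Combo and 0 in every other ATM library, and the 8 pancreas and epididymis markers summed to 568 CPM in Combo, 2979.9 to 3132 CPM in WT and at most 161 CPM in the other groups. The sum in WT was almost all epididymal *Crisp1* (2964 to 3114 CPM), which was at most 0.417 CPM in Combo. Per count of *Epx*, the median Combo library held 43.7 counts of *Mpo* in ATMs and 47.4 in BM, 12.8 and 15.6 of *Elane*, 8.28 and 14.5 of *Prtn3*, 4.37 and 8.64 of *Ctsg*, 3.07 and 4.58 of *Ms4a3*, and 3.95 and 4.83 of *Prg2*. The ratio was 30.4 in ATMs against 0.315 in BM for *Cpa3*, and 0.28 against 1.05 for *Mcpt8*. The part of these transcripts in the rise of *Prg2* and *Epx* was not tested.

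*Il5ra* varied as much within groups as between them, at 263, 139 and 102 normalized counts in WT, 232, 142 and 14.97 in vehicle, 123, 55.5 and 75.9 with the GLP-1R agonist, 51.9, 120.2 and 28.0 with anti–IL-17A and 25.9, 56.0 and 76.8 with Combo. All neighbouring groups overlapped, and the test of any difference among the 5 groups gave an FDR of 0.266. Among the alternatives run, its log2 difference of -1.30 ± 0.79 between Combo and vehicle passed the test only without vehicle replicate 3, the vehicle library with the lowest value (log2 -1.83, FDR 0.0324, with 0.0324 to 0.624 over all alternatives).

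**Figure D2:**
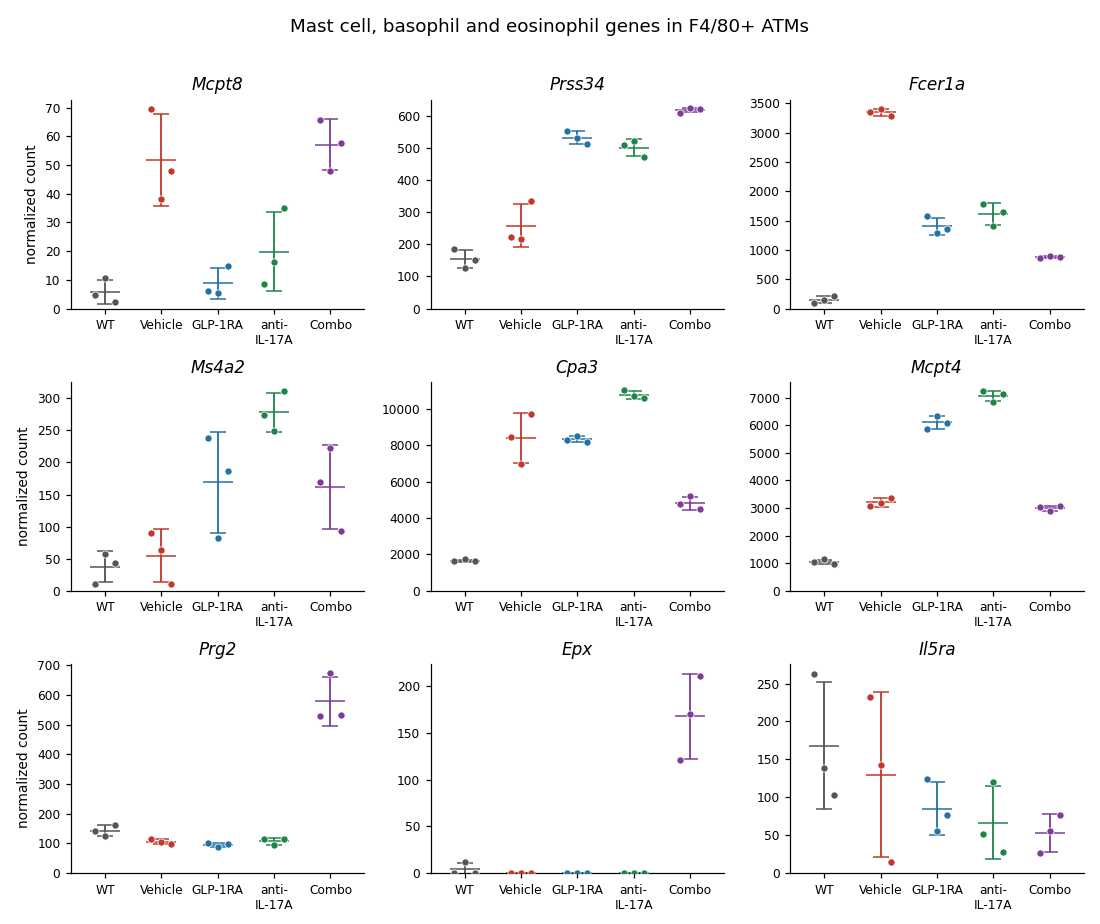
Normalized counts of the 9 members in ATMs, 1 panel per gene, with the 5 groups on the x axis and a linear y axis from 0. Points are libraries (3 per group), the dash is the mean and the bar the SD. Fcer1a peaks in vehicle, Mcpt4 in the single-agent groups, Prss34, Prg2 and Epx in Combo, and the Ms4a2 and Il5ra libraries are widely scattered within groups.

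Over the members in ATMs, vehicle against WT gave 4 higher (12.5% of all 17059 genes were called higher) and 6 not overlapping (62.9%). The GLP-1R agonist gave 1 higher (20.8%) and 2 lower (10.9%), with 4 not overlapping (59.4%), and anti–IL-17A gave 2 higher (22.4%) and 1 lower (13.1%), with 6 not overlapping (61.5%). Combo gave 3 higher (14.1%) and 1 lower (12.2%), with 6 not overlapping (52.5%). The median log2 difference over the members was 0.74 for vehicle against WT, -0.085 and 0.19 for the single agents (8 members, without *Epx*) and 0.14 for Combo. Per length, group means reached 214 RPKM for *Cpa3* and 192 for *Mcpt4*, both with anti–IL-17A, and 101 for *Fcer1a* in vehicle, while *Prg2* did not exceed 20.8, *Mcpt8* 1.72 or *Epx* 1.85 RPKM.

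**Figure D3:**
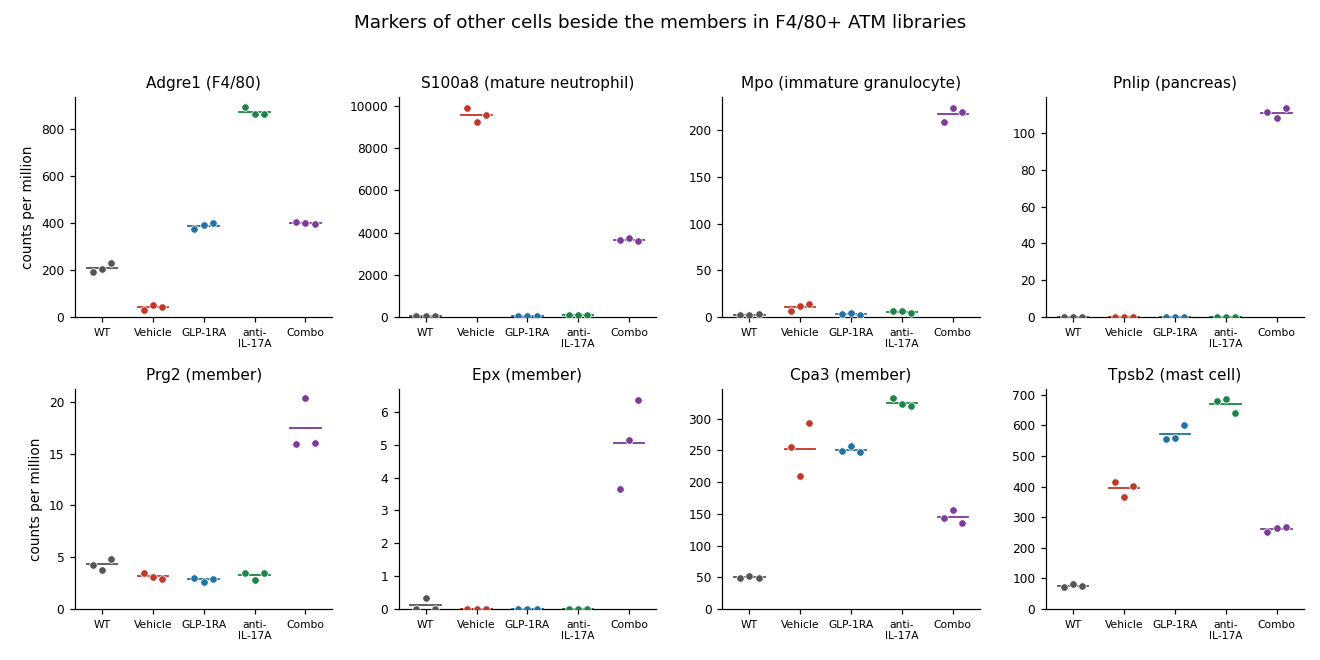
CPM of 4 marker genes (Adgre1 for macrophages, S100a8 for neutrophils, Mpo for immature granulocytes, Pnlip for pancreas) and of Prg2, Epx, Cpa3 and Tpsb2 in the 15 ATM libraries, 1 panel per gene with a linear axis from 0. Points are libraries and the dash is the mean. Mpo and Pnlip are high in the same Combo libraries as Prg2 and Epx, and Adgre1 is lowest and S100a8 highest in vehicle.

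Other mast cell genes also differed between these ATM groups. Of the 10, 5 rose in vehicle against WT, among them the tryptases *Tpsab1* (log2 4.84) and *Tpsb2* (2.37), *Hdc* (4.23) and *Kit* (2.53), with a list median of 1.85. Under Combo against vehicle 4 fell, including *Tpsab1* (-2.36), *Hdc* (-1.93) and *Rab27b*, a gene of granule exocytosis (-1.81), and *Hpgds* rose (2.27), with a median of -0.52. The 10 genes summed to 253 to 263 CPM in WT, 1596 to 1708 CPM in the vehicle and single-agent groups and 819 to 840.0 CPM in Combo. Of the 7 other basophil genes, *Cd200r3* and *Il3ra* rose in vehicle (log2 2.89 and 2.47) and fell with Combo (-2.74 and -1.93), with medians of 0.55 and -0.54. Among all genes 12.5% were called higher in vehicle against WT, and 14.1% higher and 12.2% lower with Combo.

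Of the other eosinophil genes 5 of 7 were in the ATM table, and 4 fell in vehicle against WT (22.9% of all genes fell), among them *Siglecf* (log2 -3.68), *Ear2* (-2.11) and *Ccr3* (-1.73), while *Ear1* rose (2.86), with a list median of -1.73. *Siglecf* alone of the 5 rose with Combo against vehicle (log2 1.61, FDR 0.0174), but at 97.6, 85.8 and 89.1 normalized counts it stayed under the WT libraries (333, 406 and 403), unlike *Prg2* and *Epx*. *Siglecf* and *Ccr3* are genes of mature eosinophils, and the summed level of the 5 genes was 20.3 to 31.1 CPM in Combo against 71.2 to 72.5 CPM in WT.

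Of the growth and recruitment factors 7 of 8 were in the ATM table. *Csf2* (log2 2.16), the eotaxin gene *Ccl11* (1.56) and the alarmin *Il33* (1.39) rose in vehicle against WT, and the eotaxin-2 gene *Ccl24* fell (-4.93). Under Combo 5 fell, among them *Csf2* (-3.24), *Tslp* (-3.22), *Il33* (-2.40) and *Ccl11* (-2.35), while *Ccl24*, named after its value was seen, rose (2.30), and the list median was -2.35. Among all genes 12.5% were called higher and 22.9% lower in vehicle against WT, and 14.1% higher and 12.2% lower with Combo. Of the 9 genes of IgE receptor signalling, the γ chain *Fcer1g* (log2 1.60) and the adaptor *Lcp2* (1.34) rose in vehicle and *Lat* rose with Combo (2.38), with medians of 0.75 and 0.0029. Of 9 lineage transcription factors *Cebpe* rose in vehicle (log2 2.71), and *Gata2* (-2.17) and *Trib1* (-1.45) fell with Combo. With the GLP-1R agonist and anti–IL-17A, 2 and 2 of the 10 other mast cell genes rose and 1 and 2 fell (medians 0.51 and 0.67), 1 and 1 of the 7 basophil genes fell (0.023 and -0.14), and 2 and 2 of the 5 eosinophil genes rose, with 1 lower under anti–IL-17A (-0.030 and 0.55). Of the 7 growth and recruitment factors 2 and 1 rose and 3 and 4 fell (-0.82 and -2.04). Among all genes 20.8% and 22.4% were called higher with these agents, and 10.9% and 13.1% lower.

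The response of each member was compared between tissues as the ATM log2 effect minus the BM effect, in 1 edgeR fit of all 30 libraries over 13076 genes (FDR below 0.05, no fold limit). Of the 9 members 5 passed for vehicle against WT (56% of all genes), 5 for the GLP-1R agonist (53.4%), 3 for anti–IL-17A (56.4%) and 6 for Combo (55.1%). These shares of members are near or under those of all genes except under Combo, and no test sets them apart. This fit shares 1 dispersion per gene between tissues of very unequal variation (3.51% and 32.5%), so its errors can be too small for effects in ATMs. Differences are given without SE and with the FDR of limma voom with a weight per tissue. For vehicle against WT the differences were 4.02 for *Fcer1a* (voom FDR 1.89e-15), 1.86 for *Cpa3* (2.19e-15) and 2.82 for *Mcpt8*, which voom did not call (0.0925).

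*Prss34* and *Ms4a2* differed between tissues in each treated group by both tools, with positive log2 differences from vehicle in ATMs and negative ones in BM. For *Prss34* the difference of effects was 2.62 with the GLP-1R agonist, 2.05 with anti–IL-17A and 2.52 with Combo (voom FDR 7.16e-10, 7.31e-08 and 7.55e-10). For *Ms4a2* it was 2.86, 3.24 and 2.97 (voom FDR 0.00304, 0.000442 and 0.00204). *Fcer1a* was lower than vehicle in both tissues in all treated groups, and its difference of effects under Combo was -0.24 (voom FDR 0.127). *Prg2* differed by 2.59 under Combo (voom FDR 1.05e-05).

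**Figure D4:**
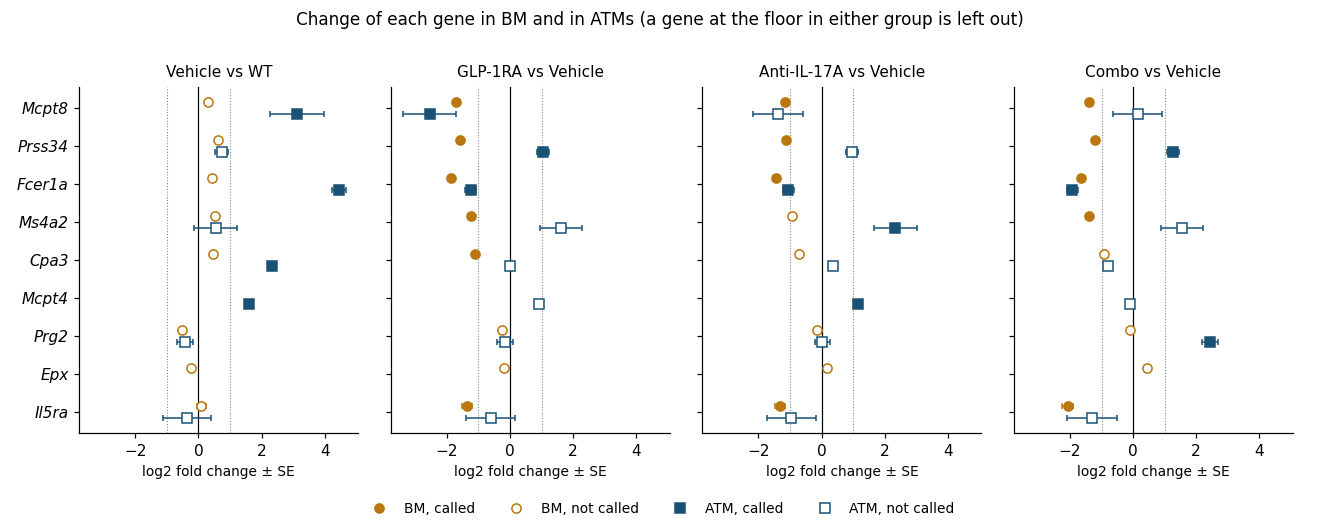
Log2 fold changes of the members in BM and in ATMs for vehicle against WT and for each treated group against vehicle, with bars for the SE. Filled points passed the test and open points did not, dotted lines mark log2 values of 1 and -1, and genes with a group at the floor are left out. Prss34 and Ms4a2 lie on opposite sides of 0 in the tissues in each treated group, and Fcer1a lies under 0 in both tissues in those groups.

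In the 5 remaining comparisons of each tissue, 10 of 45 member tests passed in BM and 26 of 45 in ATMs. The share of all genes called in either direction was 5.67% to 14.7% per comparison in BM and 14.2% to 21.6% in ATMs. In BM, *Fcer1a* was below WT in all 3 treated groups (log2 -1.45 with the GLP-1R agonist, -1.01 with anti–IL-17A and -1.21 with Combo), as was *Il5ra* (-1.27, -1.23 and -1.98), and *Mcpt8* with the GLP-1R agonist (-1.39) and Combo (-1.10). *Mcpt4* was higher with the GLP-1R agonist than in WT (FDR 5.25e-06, with 6.1% of all genes higher) and lower in Combo than with the GLP-1R agonist (FDR 6.37e-06, with 8.57% lower). The share of all genes called lower against WT was 8.62% for the GLP-1R agonist, 4.02% for anti–IL-17A and 9.93% for Combo. In the comparisons of Combo with WT and with the single agents, in both tissues, the sex-linked genes differed as well, and treatment or recipient cannot be told apart from the sex of the cells there. In ATMs, Combo against WT gave 8 members higher (7.08% of all genes), all but *Il5ra*, and each single agent gave 5 higher (7.7% for the GLP-1R agonist and 9.65% for anti–IL-17A), the 5 being *Mcpt4*, *Cpa3*, *Prss34*, *Fcer1a* and *Ms4a2*. Combo ATMs were below anti–IL-17A ATMs in *Cpa3* (log2 -1.16) and *Mcpt4* (-1.24), with 10.5% of all genes called lower, and below GLP-1R agonist ATMs in *Mcpt4* (-1.03), with 13.4% lower. They were above anti–IL-17A ATMs in *Prg2* (2.43) and *Epx*, with 3.73% of all genes called higher, and above GLP-1R agonist ATMs in *Prg2* (2.61), *Mcpt8* (2.68) and *Epx*, with 5.38% higher. The test of any difference among the 5 groups passed for 9 of 9 members in BM (95.1% of all genes) and 8 of 9 in ATMs (73.5%).

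The genes most alike to 3 members were taken as those with the highest Pearson's r of log2 CPM over the 15 libraries of a tissue, as a description with no test. In BM, *Cpa3* was most like *Ms4a6c* (0.99), *Mpeg1* (0.98), *Ms4a4c* (0.98), *Ifi204* (0.98) and *Hist3h2a* (0.98), and *Mcpt8* most like *Ifi27l2a* (0.99), *Fcer1a* (0.99), *Klra2* (0.99), *Nfkbie* (0.99) and *Idnk* (0.99), with *Fcer1a*, another member, among them. *Epx* was most like *Faap20* (0.98), *Capzb* (0.98), *Twf2* (0.98), *Pfn1* (0.98) and *Vrk3* (0.98). In ATMs, *Cpa3* was most like *Cd63* (0.99), *Tpsb2* (0.98), *Cma1* (0.98), *Cndp2* (0.98) and *Grn* (0.98), of which *Tpsb2* and *Cma1* are mast cell proteases. *Mcpt8* was most like *Trem3* (0.93), *Rps6kb2* (0.93), *Ncf1* (0.92), *Krt6a* (0.91) and *Abtb1* (0.91). *Epx* was most like *Try4* (0.99), *Zg16* (0.97), *Cpb1* (0.96), *Pnlip* (0.96) and *Reg3b* (0.96), of which *Try4*, *Cpb1* and *Pnlip* encode digestive enzymes of the pancreas.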

How the data were processed

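RNA from whole BM and from visceral adipose F4/80+ cells (ATMs) was sequenced in 30 libraries, with 3 libraries per group and 5 groups per tissue. The labels do not divide the libraries into batches. The authors aligned reads with STAR 2.7.2a to mm10 and deposited raw counts per gene from featureCounts 2.0.1 (GENCODE M22, unstranded, read pairs with mapping quality of at least 10, reads allowed to count for overlapping genes), and used DESeq2 themselves. By their methods DESeq2 also served to correct the counts for batch and library preparation, and the batches are not named there. Every count column was matched to a library, with 0 columns of no sample. Unstranded counts cannot separate a gene from an antisense partner, though no exon base of the 9 genes was shared with an annotated gene.

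Each tissue was fitted in 1 edgeR quasi-likelihood model of 15 libraries (edgeR 4.0.16, R 4.3.3, robust fit, TMM normalization, 5 group terms and no block). filterByExpr removed 0 genes, since the deposited tables were already filtered, with totals of at least 55 counts per gene in BM and 54 in ATMs. Calls needed a Benjamini-Hochberg FDR below 0.05 over the whole table and an absolute log2 fold change above 1, which are the authors' limits. For normalized counts, each library was scaled to the mean effective size of its tissue. RPKM used exon lengths of the gene models in GRCm38. A library's floor was 3 counts, and exact 95% intervals cover counting error only. The tissue difference was fitted over 13076 genes in both tables. DESeq2 1.42.0, limma 3.58.1 voom, other scaling, filters, fold limits, fits of 2 groups only, a replicate block and leaving out each library in turn were tried as alternatives. The code was tested on simulated data. Figures were drawn with matplotlib 3.10.9 (Python 3.11.15).

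Replicate numbers were shared between groups, but same-numbered libraries did not deviate together (correlations from -0.02 to 0.05), so the numbers do not pair the samples. The 9 members and all gene lists were chosen with earlier results of these data known. All members are named. Of other lists, counts and medians are given, with names for up to 4 genes per list, tissue and contrast, by absolute log2 fold change among genes called in vehicle against WT or Combo against vehicle that averaged 10 counts or more. Likeness was Pearson's r of log2 CPM (prior count 2) over 15 libraries, among genes averaging 10 counts or more. Promoters came from RefSeq (GRCm38.p6), with entries for 8 of 9 members.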

Additional observations from a re-analysis of the deposited data

Results flagged for a closer look

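The results given here are members whose response differed between tissues, that is, whose ATM log2 effect minus BM log2 effect passed an FDR of 0.05 in the edgeR fit of all libraries. That fit shares its dispersion between tissues of unequal variation, so the FDR of limma voom with a weight per tissue stands beside each, and the shares of members that passed are near those of all genes. For vehicle against WT the differences were 4.02 (voom FDR 1.89e-15) for *Fcer1a*, 2.82 (voom FDR 0.0925) for *Mcpt8* and 1.86 (voom FDR 2.19e-15) for *Cpa3*, in each case larger in ATMs. *Mcpt4* and *Epx* also passed (FDR 0.000291 by edgeR and 0.00130 by voom for *Mcpt4*, and 0.0481 by edgeR and 0.741 by voom for *Epx*), with no fold because a group was at the floor in 1 tissue. The value for *Epx* rests on the 11 counts of ATM WT replicate 2.

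For the GLP-1R agonist against vehicle the differences were 2.62 (voom FDR 7.16e-10) for *Prss34*, 2.86 (voom FDR 0.00304) for *Ms4a2*, 1.08 (voom FDR 3.64e-12) for *Cpa3* and 0.63 (voom FDR 4.74e-05) for *Fcer1a*, with an FDR of 3.82e-07 by edgeR and 5.65e-07 by voom for *Mcpt4*, whose BM vehicle level is at the floor. For anti–IL-17A they were 2.05 (voom FDR 7.31e-08) for *Prss34*, 3.24 (voom FDR 0.000442) for *Ms4a2* and 1.04 (voom FDR 9.56e-13) for *Cpa3*. For Combo they were 1.58 (voom FDR 0.103) for *Mcpt8*, 2.52 (voom FDR 7.55e-10) for *Prss34*, 2.97 (voom FDR 0.00204) for *Ms4a2* and 2.59 (voom FDR 1.05e-05) for *Prg2*, with FDRs of 0.0298 by edgeR and 0.0291 by voom for *Mcpt4* and 4.10e-09 by edgeR and 9.05e-05 by voom for *Epx*. By limma voom, *Mcpt8* did not pass for vehicle against WT or for Combo.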

How the results depend on the processing

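Without the fold limit, BM gave 10227, 9717, 9750 and 9849 called genes for vehicle against WT and for the GLP-1R agonist, anti–IL-17A and Combo against vehicle, and ATMs 9704, 9176, 9914 and 8309. Called members were then 7 for vehicle against WT, 8 for anti–IL-17A, 8 for Combo and 39 in the remaining BM comparisons, and 5 for anti–IL-17A in ATMs. The matching shares of all genes were 76.6%, 73%, 73.8%, 52.5% to 74.7% per remaining BM comparison, and 58.1%. A minimum of 10 counts in every library left 11919 BM genes (without *Mcpt4*) and 12064 ATM genes (without *Mcpt8*, *Ms4a2* and *Epx*). It gave 1428 called genes for anti–IL-17A in BM and, in ATMs, 3934, 3335 and 3724 for vehicle against WT, the GLP-1R agonist and anti–IL-17A, with 17 member calls in the remaining ATM comparisons and 5 members differing among the 5 groups, counts lowered by the fewer genes tested. DESeq2 called 1 member (*Mcpt4*) for vehicle against WT in BM, and leaving out 1 library gave 0 to 1. The tissue difference of vehicle against WT passed for 3 members by limma voom, which weights the tissues separately. The normalization moved the median of all genes by at most 0.05 (log2).

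With the replicate number as a block, each count of called members equalled that without it, and called genes were 2595, 2234, 2154 and 2362 in BM and 5922, 5319, 5955 and 4321 in ATMs. Of 879 alternative values of single members, 823 kept direction and side of the threshold, 10 lost the call, 34 gained it and 12 changed sign, all of the last without a call and each on leaving out 1 library. Removing the fold limit gave 21 of the 34 gained calls. That setting leaves the fold change as it was and can only keep or add a call. The ranges were -0.051 to 0.22 for *Il5ra* in BM (vehicle against WT). In ATMs they were -0.039 to 1.03 for *Ms4a2* and -1.10 to 0.16 for *Il5ra* (vehicle against WT), -0.13 to 0.11 for *Cpa3* and -1.14 to 0.12 for *Il5ra* (GLP-1R agonist), -0.048 to 0.12 for *Prg2* (anti–IL-17A) and -0.038 to 0.41 for *Mcpt8* (Combo). Low counts in ATMs (*Mcpt8*, *Ms4a2* and *Il5ra*) carried SEs up to 0.87 on the log2 scale, which limits the differences detectable there.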
